A study of Mus musculus with 8 samples.

Results

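The regions described here are the accessible regions at the ends of protein-coding genes in 4 mouse melanoma cell lines. The count table of the series holds 148664 regions on all chromosomes. An autosomal region was taken as a gene-end region when it overlapped, or lay within 1 kb of, either end of a protein-coding gene in the RefSeq gene table of mouse build GRCm38. This choice used positions only, and it gave 17783 regions, 12.0% of all, at the ends of 14099 genes. Of them 10649 (59.9%) overlapped an end. By the strand of the genes, 10541 lay only at starts, 2548 only at finishes and 781 at both, and for 3913 the strand was not found in the sequence table used.

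The assay was ATAC-seq: a transposase, Tn5, cuts chromatin where it is open and leaves sequencing adapters there. The 8 libraries came from 4 lines with 2 libraries each, made from 50000 cells per reaction, with fragments above 1200 bp removed. Lines 112 and 113 carried a STAT3 knockout (Stat3∆), and lines 119 and 73 were wild type (Stat3fl). Each line was grown out of lymph node cells of a mouse with cutaneous melanoma that began at about 25 to 30 weeks of age. The growth protocol calls the lines pools, while another label calls each a clone, and no driver of the Stat3 deletion is given. A p number in the titles, with no stated meaning, also differed (p18 in 112, p44 in 113, p14 in 119, p68 in 73). Since each genotype is 2 lines, differences of genotype and of line cannot be told apart beyond what 2 lines allow.

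A promoter is the stretch before a gene's start where RNA polymerase and general factors assemble. In mammals many promoters, above all those of genes used by every cell, sit in CpG islands, stretches rich in the dinucleotide CG that are kept free of nucleosomes in most cell types. Promoters poor in CpG more often belong to genes of 1 tissue and open only there, and gene finishes are open less often than starts. STAT3 is a transcription factor downstream of cytokine receptors, and the series asks about STAT3, C/EBP factors and the pigmentation genes under MITF, the lead factor of melanocytes.

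The following 5 promoters show the sequence range found at the starts. Each is the 250 bases before the RefSeq start (GRCm38.p6), written 5′ to 3′ on the gene's strand. Tyr was a member named by rule in the genotype split and Gsk3b and Sdk1 were named by rule for signal and for line 113, while Psmd6 and Tpbg were chosen after their values were seen, and all 5 were picked for printing with values known. Capitals mark CpG dinucleotides in the first pair, of Gsk3b (chr16:38088751-38089000, plus strand), one of the strongest gene-end regions, and of Sdk1 (chr5:141241284-141241533, plus strand), which was open mainly in line 113.
Gsk3b: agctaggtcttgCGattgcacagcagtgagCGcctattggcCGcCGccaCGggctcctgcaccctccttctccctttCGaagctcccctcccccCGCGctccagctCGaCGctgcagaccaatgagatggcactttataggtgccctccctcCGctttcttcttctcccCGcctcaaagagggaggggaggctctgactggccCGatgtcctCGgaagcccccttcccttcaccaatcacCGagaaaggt
Sdk1: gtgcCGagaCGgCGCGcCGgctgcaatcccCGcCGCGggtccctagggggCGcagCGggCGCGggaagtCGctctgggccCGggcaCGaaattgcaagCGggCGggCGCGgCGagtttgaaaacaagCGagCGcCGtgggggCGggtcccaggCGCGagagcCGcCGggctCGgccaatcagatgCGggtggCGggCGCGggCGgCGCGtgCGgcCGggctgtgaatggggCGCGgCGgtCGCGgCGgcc
In the promoter of Psmd6 (chr14:14120946-14121195, minus strand), a proteasome subunit gene that was even across the lines, capitals mark the letters CCGGAAG, the core that ETS factors bind. In that of Tpbg (chr9:85842130-85842379, plus strand), which was higher in the wild-type lines, capitals mark 2 matches to TGANTCA. These letters, with any base at N, take in the site of AP-1 (FOS and JUN proteins), which has C or G there. The match TGACTCA has that form and TGAATCA does not. In the promoter of Tyr (chr7:87493513-87493762, minus strand), which encodes tyrosinase and was higher in the knockout lines, capitals mark TCATGTG, the M-box letters known from MITF targets.
Psmd6: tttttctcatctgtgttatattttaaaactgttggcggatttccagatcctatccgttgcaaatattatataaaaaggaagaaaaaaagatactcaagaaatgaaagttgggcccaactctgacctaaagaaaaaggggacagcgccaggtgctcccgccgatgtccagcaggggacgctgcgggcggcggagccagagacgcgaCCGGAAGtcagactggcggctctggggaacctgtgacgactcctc
Tpbg: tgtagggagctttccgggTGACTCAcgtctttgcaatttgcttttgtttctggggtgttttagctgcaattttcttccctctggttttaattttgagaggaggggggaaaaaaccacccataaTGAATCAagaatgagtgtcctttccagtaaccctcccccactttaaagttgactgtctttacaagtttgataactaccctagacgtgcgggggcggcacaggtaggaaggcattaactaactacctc
Tyr: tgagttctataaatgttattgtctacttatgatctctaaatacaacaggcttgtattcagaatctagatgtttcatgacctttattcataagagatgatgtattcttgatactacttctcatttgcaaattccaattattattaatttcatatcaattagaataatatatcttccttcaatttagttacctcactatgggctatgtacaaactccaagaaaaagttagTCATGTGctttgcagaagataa
The Gsk3b stretch holds 15 CpG and the Sdk1 stretch 44, while the Tyr stretch holds 0. The Gsk3b region had line means of 90.1 CPM (counts per 1000000, on library sizes scaled by TMM) in line 112, 152 in 113, 86.9 in 119 and 116 in 73. Psmd6 had 21.9, 29.3, 27.2 and 29.9 CPM in the same order, the narrow range of 0.44 on the log2 scale. Tpbg, a cell-surface glycoprotein gene, had 5.19 and 3.96 CPM in the knockout lines and 30.7 and 44.6 CPM in the wild-type lines.

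The libraries held 2697546 to 7464336 counts in the table, with line 112 replicate 2 the shallowest and line 119 replicate 1 the deepest. The median gene-end region had 37 to 89 counts per library. Sums for the markers of every cell type took only the strongest region of each gene. The melanocyte markers had gene-end regions for 7 of 7 genes, and their sum was 143 CPM in line 112, 232 in 113, 82.7 in 119 and 114 in 73. In line 73 the start of Mitf gave 36.6 CPM of this and the region of Pmel and Rab5b 69.8. In line 119 they gave 19.6 and 34.0 CPM. At the strongest regions of Sox10, Tyr, Dct and Mlana line 73 was below line 119, and at that of Tyrp1 it was above. Of the markers of other cells, the leukocyte gene Ptprc had no gene-end region, and regions were present for 2 of 5 T cell, 3 of 5 B cell, 3 of 5 myeloid, 5 of 5 fibroblast, 1 of 4 endothelium and 1 of 3 keratinocyte markers. Their sums by line ranged from 16 to 30.1 CPM for T cells, 17.1 to 22.9 for B cells, 15.1 to 27.1 for myeloid cells, 39.5 to 54.0 for fibroblasts, 3.79 to 7.68 for endothelium and 0.378 to 5.31 for keratinocytes. The part of other cells in the results was not tested, and in bulk libraries a smaller share of open cells and less opening per cell cannot be told apart.

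Gene-end regions were the strong regions of these libraries, and the signal was close to that of the rest at the outer edge of the first kilobase. The median over gene-end regions of the mean of the 4 lines was 14.4 CPM, or 17.9 CPM per kb of region, against 3.21 CPM and 5.34 CPM per kb over the 126844 other autosomal regions. Starts were stronger than finishes, with 23.3 CPM per kb at regions only at starts and 6.34 CPM per kb at regions only at finishes. Regions that overlapped an end had 25.3 CPM per kb and those 1 bp to 1 kb away had 9.58. Median width was 658 bp for gene-end regions and 568 bp for the others. The 1 kb limit did not mark a step: regions in the last 100 bp inside it had a median of 4.87 CPM and those in the first 100 bp beyond it 5.07 CPM.

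**Figure D1:**
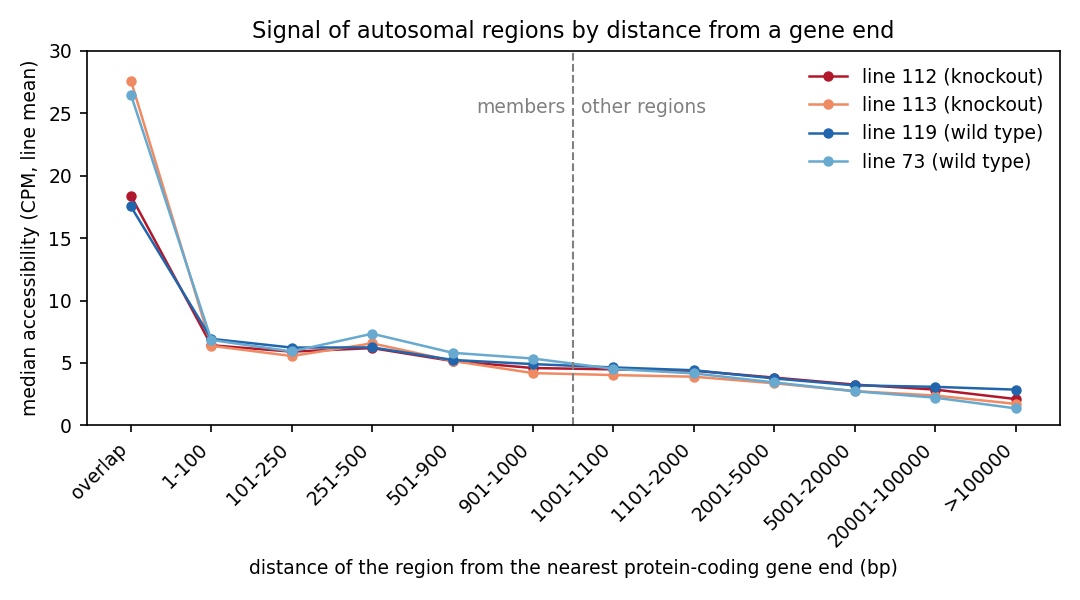
Median signal (CPM, line means) of autosomal regions by distance from the nearest protein-coding gene end, one line of points per cell line, with the dashed line at 1 kb. Overlapping regions had medians of 18.4 (line 112), 27.6 (113), 17.5 (119) and 26.5 CPM (73), while regions over 100 kb away had 2.11, 1.73, 2.87 and 1.37 CPM.

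The order of the lines differed between gene ends and distant regions, as the plot of signal by distance shows. Lines 113 and 73 were the highest over regions that overlap an end and the lowest over 100 kb away, and line 119 was the reverse. Of the 17783 gene-end regions, 95.2% overlapped a peak call of at least 1 library, against 87.1% of the other autosomal regions. Per library, 48.9% to 81.6% of gene-end regions and 7.57% to 58.4% of the others had a peak, the lowest in line 112 replicate 2 and the highest in line 119 replicate 1, which are also the shallowest and the deepest library. The authors' peak fold over background had medians of 5.34 to 8.09 on gene-end regions and 4.81 to 6.27 elsewhere.

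The gene-end regions took 32.1% and 31.2% of the counts in the libraries of line 112, 36.6% and 36.8% in 113, 26.4% and 26.8% in 119, and 37.3% and 37.0% in 73. Replicates lay within 1 percentage point of each other, lines 113 and 73 were high, and each genotype had a high and a low line. The knockout lines averaged 34.2% ± 3.58 (SD, n = 2 lines) and the wild-type lines 31.8% ± 7.47 (SD, n = 2 lines). That difference of 2.33 percentage points was smaller than the spread between lines (exact two-sided permutation test over 4 lines, p = 1, with 0.333 the smallest p this design allows). The line with the lowest share, 119, was also the most deeply sequenced, and the part of depth in this order was not tested.

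**Figure D2:**
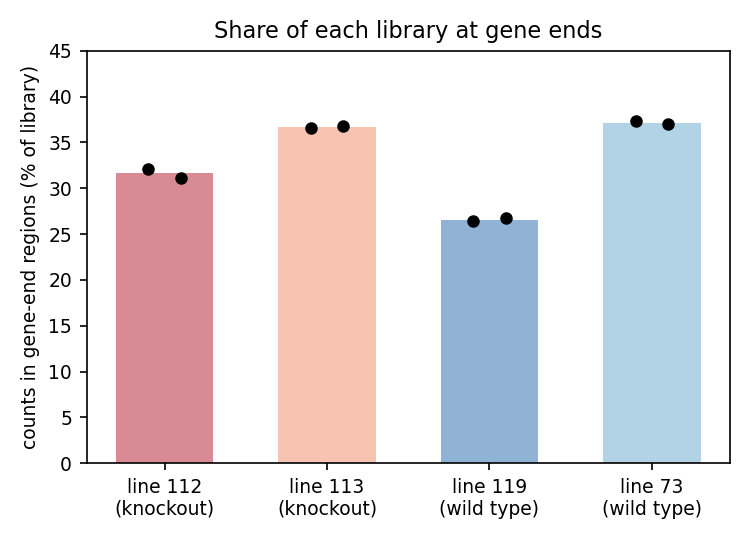
Share of each library's counts (%) that fell in gene-end regions; points are libraries and bars are the mean of the 2 libraries of a line. Lines 113 and 73 lie near 37%, line 112 near 32% and line 119 near 27%.

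Gene-end regions varied less between the lines than the other regions did. After a filter on low counts 17478 of the 17783 could be tested and 305 could not. The SD of the 4 line means, on the log2 CPM scale, had a median of 0.47 over the tested gene-end regions and 0.88 over the 113364 other autosomal regions tested. The SD between replicates of a line was 0.23 and 0.36. Correlation of log2 CPM over gene-end regions, which share gene position and strong signal, averaged 0.964 ± 0.0214 (SD, 4 pairs of libraries) for replicates, 0.900 ± 0.0154 (4 pairs) for 112 with 113, 0.791 ± 0.00648 (4 pairs) for 119 with 73 and 0.799 ± 0.0160 (16 pairs) for a knockout with a wild-type library. Over the other regions the same means were 0.896, 0.730, 0.367 and 0.327. The lines were less alike over distant regions. At gene ends line 119 correlated less with 73 (0.791) than with 112 (0.801) and 113 (0.820). Line 73 had 0.788 with 112 and 0.785 with 113, slightly below its value with 119.

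Most gene-end regions nevertheless differed between some pair of lines by a measurable amount. By edgeR's quasi-likelihood test over the 4 line means with Benjamini-Hochberg adjustment over all 134068 tested regions, 15152 gene-end regions (86.7%) passed 0.05, where the share over all tested regions was 85.6%. Only differences of 4-fold or more between the highest and lowest line, called large here, were a minority: 2854 gene-end regions (16.3%), where 43.9% of all tested regions passed the same rule. The range between lines was 0.5 to 1 on the log2 scale for 7498 gene-end regions, 1 to 1.5 for 4666, and 4 or more for 133. Regions only at finishes were large in 33.2% and regions only at starts in 12.0%. Line 73 was the highest in 1139 of the large regions and the lowest in 1003, and line 112 was the highest in 318 and the lowest in 295.

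The smaller share of large differences at gene ends held in each band of signal, with a smaller gap in percentage points at the lowest and highest signal. Among regions with a mean of 10 to 20 CPM, 18.6% of gene-end regions and 57.5% of the others were large. From 20 to 40 CPM the shares were 4.11% and 31.7%, and at 40 CPM or more 1.33% and 3.36%. Below 2 CPM they were 36.0% and 41.1%. Between 10 and 20 CPM finishes stood nearer to distant regions, with 44.7% large against 15.7% of starts. At lower signal finishes stood nearer to starts. Between 2 and 5 CPM, which held 50.6% of finishes, 27.0% of finishes, 23.2% of starts and 44.6% of the other regions were large. Between 5 and 10 CPM the shares were 39.6%, 26.1% and 59.9%. These shares are descriptions without a test, since neighbouring regions share their source.

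**Figure D3:**
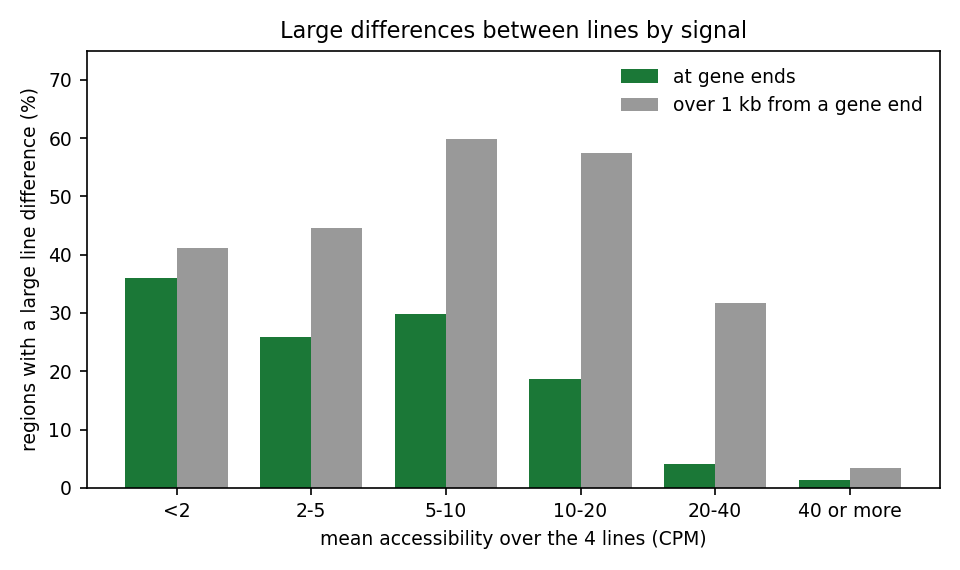
Share of tested regions (%) called with a difference of at least 4-fold between the highest and lowest line, by mean signal (CPM), for gene-end regions (green) and other autosomal regions (grey). Between 5 and 10 CPM the shares are 29.9% and 59.9%, and both drop at 40 CPM or more.

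None of the 6 strongest gene-end regions was large. Bhlhe40, a circadian and hypoxia-regulated repressor, had 181 and 118 CPM in the libraries of line 112, 197 and 191 in 113, 110 and 103 in 119, and 147 and 174 in 73 (chromosome 6, 108658704 to 108660670). The region shared by Fam72a and Srgap2 and the regions of Spaca6, Gsk3b, Zcchc2 and Pcdh7 followed, with ranges of 0.80 to 1.19 on the log2 scale. Of regions with at least 20 CPM, the start of Il17d, a cytokine gene, had the smallest range, 0.12. Its libraries gave 30.4 and 27.8 CPM in line 112, 30.7 and 29.3 in 113, 33.7 and 25.5 in 119, and 30.8 and 32.3 in 73, and no line stood apart. Otx1, a homeobox gene of the forebrain, Gm42517, Mill2 and the region between Dmpk and Six5 had ranges of 0.16 to 0.19.

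At starts, the share of large regions was highest where CpG were fewest. Of the tested gene-end regions, 8373 held a gene start with a sequence in the promoter table, of which 779 (9.30%) were large. With 0 or 1 CpG in those bases 46.5% of 142 regions were large, with 4 to 6 CpG 21.4% of 555, with 11 to 15 CpG 7.87% of 1729, and with 31 or more 6.33% of 884. Median CpG number was 11 at large and 17 at other starts. Signal was also higher with more CpG, from a median of 4.50 CPM at 0 or 1 CpG to 32.2 CPM at 31 or more, so the shares were also taken at matched signal. Below 10 CPM, 42.6% of starts with 0 to 3 CpG and 18.3% of those with 21 or more were large. Between 10 and 20 CPM the share did not fall steadily, at 26.4% with 0 to 3 CpG, 16.4% with 4 to 10, 11.5% with 11 to 20 and 17.3% with 21 or more. Between 20 and 40 CPM it was 16.7% (7 of 42) with 0 to 3 and 2.76% with 21 or more. Sdk1, with its 44 CpG, was among the large ones.

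**Figure D4:**
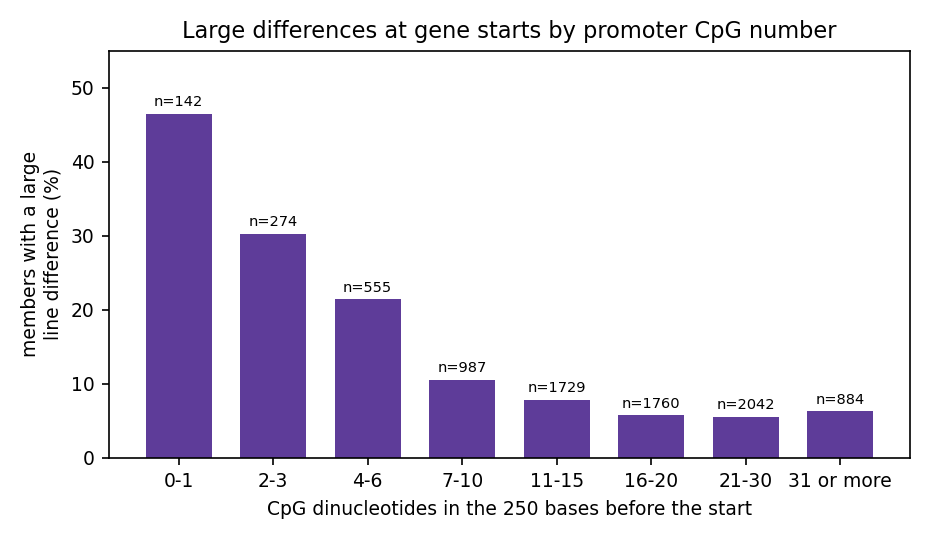
Share of gene starts (%) whose region differed by at least 4-fold between lines, by number of CpG dinucleotides in the 250 bases before the start; n above each bar is the number of regions. The share is 46.5% at 0 or 1 CpG and lies between 5.53% and 7.87% from 11 CpG upward.

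Other letters in the same 250 bases were counted on both strands, as a description. The motifs searched were TATAAA (the TATA box), CCAAT (the box of NF-Y), GGGCGG (Sp1), CCGGAAG (ETS) and CACGTG (the E-box). Also searched were TGANTCA (wider than the AP-1 site, which it takes in), TCATGTG (the M-box), TTCNNNGAA (STAT) and the NRF1 site. No motif contains another, and TTCNNNGAA and CCGGAAG can overlap. CCGGAAG, the ETS core, was in 14.9% of starts that were not large and in 4.62% of large ones, and in 9.21% of all 20084 autosomal promoters. GGGCGG, the Sp1 box, was in 65.2% and 53.0%, and in 43.4% of all promoters. TGANTCA, which takes in the AP-1 site, ran the other way, with 3.98% and 9.88%, and 6.18% of all promoters. It was in 31 of 198 starts (15.7%) higher in both wild-type lines and in 6 of 159 (3.77%) higher in both knockout lines. Single lines differed as well: it was in 13.4% of starts higher in line 119 than in each other line. The same share was 9.70% for line 73, 8.99% for 112 and 3.17% for 113. Of starts lower in line 113 than in each other line 13.2% held it, against 3.06% to 5.88% for the other lines. Median CpG number was 10 at the starts higher in both wild-type lines and 14 at those higher in both knockout lines. TTCNNNGAA, the letters of STAT sites, was in 7.07% and 7.55% of the same starts and in 6.66% of all promoters. TCATGTG, seen above at Tyr, was in 5 of the 159 (3.14%) and 3 of the 198 (1.52%), and in 2.59% of all promoters and 1.58% of the starts tested.

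In 5 of the 6 pairs of lines the median difference at gene ends lay on the side of the line with the larger share of counts there, and the pair of 113 and 73, whose shares were 36.7% and 37.1%, was the exception. By edgeR's quasi-likelihood test, 7094 gene-end regions (40.6%) passed adjusted 0.05 between lines 112 and 113 (24.5% of all tested regions), 5699 (32.6%) between 112 and 119 (47.9%), 9009 (51.5%) between 112 and 73 (51.9%), 11652 (66.7%) between 113 and 119 (60.3%), 6156 (35.2%) between 113 and 73 (54.2%) and 11054 (63.2%) between 119 and 73 (58.6%). Median differences over gene-end regions, on the log2 scale, were -0.41 for 112 minus 113, 0.11 for 112 minus 119 and -0.40 for 112 minus 73. They were 0.60 for 113 minus 119, 0.06 for 113 minus 73 and -0.55 for 119 minus 73. Line 112 was higher than 113 in 984 of the calls (9.12% of all tested regions passed) and lower in 6110 (15.4%), higher than 119 in 3367 (21.1%) and lower in 2332 (26.8%), and higher than 73 in 2150 (26.4%) and lower in 6859 (25.5%). Line 113 was higher than 119 in 9364 (28.4%) and lower in 2288 (31.9%), and higher than 73 in 3092 (27.5%) and lower in 3064 (26.7%). Line 119 was higher than 73 in 2149 (31.9%) and lower in 8905 (26.8%). Called differences of 4-fold or more numbered 304 between the knockout lines and 1410 between the wild-type lines, and were most numerous between 113 and 73, at 1954. These were 1.74%, 8.07% and 11.2% of the gene-end regions tested, where 4.26%, 24.7% and 31.6% of all tested regions passed the same rule. Without line 113 replicate 1 the count between 112 and 113 was 4441, and without line 119 replicate 1 the 3 counts that involve line 119 were 3323, 7727 and 7033.

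When library sizes were scaled on the gene-end regions themselves, an alternative added after seeing the data, all regions shifted by 0.42, -0.12, 0.39, -0.55, -0.03 and 0.52 on the log2 scale in the same 6 pairs. That scaling centres the gene-end regions by construction, to medians of -0.03 to 0.05, so the near balance of calls under it was set in advance. The share of calls with the first line higher went from 13.9% to 57.5% for 112 against 113, from 23.9% to 53.0% for 112 against 73, from 80.4% to 44.1% for 113 against 119, from 19.4% to 54.9% for 119 against 73 and from 59.1% to 47.2% for 112 against 119. Under that scaling 11661 gene-end regions (66.7%) differed between any lines, where the share over all tested regions was 83.8%. Large differences then numbered 3105 (48.7% of all tested regions passed), and 2579 of the 2854 were among them.

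For a split of the lines into 2 and 2, a region counted as separated if each of the 4 pairs across it passed with 1 sign. With lines 113 and 73 higher than 112 and 119 there were 2766 separated gene-end regions (15.8%, where 2.8% of all tested regions passed), and with 112 and 119 higher 98 (1.39% of all), 2864 in either direction (4.2% of all). Scaling on the gene-end regions gave 130 (0.18% of all) and 419 (4.52% of all). The count of 2766 was 1200 without line 119 replicate 1, 1328 without line 119 replicate 2 and 5105 without line 112 replicate 1, and the count of 98 was 42 without line 113 replicate 1, 48 without 113 replicate 2, 62 without 119 replicate 1, 52 without 73 replicate 1 and 58 without 73 replicate 2. Individual members of this split were far apart. Svip, a regulator of protein degradation, had 43.9 and 30.5 CPM in line 112 and 39.0 and 39.0 in 119, but 3.95 and 5.81 in 113 and 4.03 and 3.68 in 73. The start shared by 6820408C15Rik and Zcchc3 ran the other way, with 1.90 and 6.95 CPM in line 112, 32.9 and 30.0 in 113, 3.25 and 2.45 in 119 and 21.3 and 23.7 in 73. Ect2, a cytokinesis factor, was also higher in 113 and 73, and Cps1, the first enzyme of the urea cycle, was at 0 counts in both. The call of Cps1 was lost by DESeq2.

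The split of 112 and 73 against 113 and 119 had the fewest regions, 134 with 112 and 73 higher (0.957% of all tested regions) and 182 with 113 and 119 higher (2.22%), 316 in either direction (3.17%). Sox2, a stem cell and neural crest factor, had 1.42 and 2.12 CPM in line 112, 15.4 and 12.6 in 113, 31 and 32.0 in 119 and 1.66 and 2.63 in 73 at chromosome 3, 34649612 to 34650174. Pex5l had 31.8 and 34.9 CPM in line 113 and 23.9 and 20.6 in 119, and at most 2.42 in the other two lines. Klrg1, a receptor of lymphocytes, and Gm5784 were higher in 112 and 73. The Gm5784 call was lost without line 112 replicate 1, without line 113 replicate 2 and by DESeq2.

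Gene-end regions that separated the genotypes numbered 565 with both knockout lines higher (3.23%, where 7.89% of all tested regions passed) and 655 with both wild-type lines higher (3.75%, where 7.73% passed). Both shares were below the background. Scaling on gene-end regions gave 528 (6.85% of all) and 797 (7.53% of all), of which 405 and 562 were shared with the counts above. Without line 119 replicate 1 the count of 565 was 362. With lines as the units, 2 against 2, edgeR called 0 gene-end regions (0% of all tested), with a smallest adjusted p of 0.150. At an unadjusted p under 0.05 there were 993 (5.68%, where 16.5% of all tested regions passed), 403 of them higher in knockout, and DESeq2 with lines as units called 292, where 5.08% of all tested regions passed. Without line 112 replicate 1 edgeR called 13.

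Grik2, a kainate receptor subunit gene, led the regions higher in knockout. Its start on chromosome 10 (49790160 to 49790732) had 20.9 and 13.9 CPM in line 112, 32.0 and 32.5 in 113, 1.76 and 0.35 in 119 and 1.19 and 0.263 in 73. Its 4 libraries of each genotype did not overlap, and the smallest of the 4 pair differences was 3.92 on the log2 scale. Mlana, Syt4, Tyr and Dct followed, so 3 of the 5 leading genes belong to melanocytes. Syt4, a synaptotagmin of vesicle release, had 12.1, 4.23, 12.7 and 11.6 CPM in the knockout libraries and 0.263 to 1.19 in the wild-type ones.

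Tbx18, a T-box factor of mesenchyme, led the regions higher in wild type. Its start on chromosome 9 (87731106 to 87731663) had 0.949 and 2.72 CPM in line 112, 0.439 and 1.45 in 113, 20.4 and 24.3 in 119 and 27.3 and 29.7 in 73. The other 4 were finishes, of Naa11, an acetyltransferase, Syt14, Wdr60, a dynein chain of cilia, and Dimt1, which methylates ribosomal RNA. Wdr60 had 1.66 to 2.18 CPM in the knockout libraries and 18.3 to 24.7 in the wild-type ones, with no overlap.

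Stat3 itself had 3 gene-end regions and none of them was large. The region over its start (chromosome 11, 100939208 to 100939818) had 31.1 and 25.4 CPM in line 112, 37.3 and 37.5 in 113, 19.1 and 18.9 in 119 and 36.0 and 26.6 in 73. The knockout and wild-type libraries overlapped, with a log2 difference of 0.37 (edgeR, lines as units, adjusted p = 0.83). A region at an end of the gene does not check a deletion inside it.

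Of the pigmentation list of 18 genes, 15 had gene-end regions, and 17 of the 25 tested regions (68%) were large, with 11 separated by genotype, all 11 higher in knockout. The 11 and the 0 in the other direction were the same counts with DESeq2 size factors and with scaling on gene-end regions, and library totals gave 14 and 0. The background was 16.3% large for gene-end regions and 43.9% for all, and 3.23% and 7.89% separated with knockout higher. This list was chosen with earlier results of these data known and is no independent evidence of its direction. Tyr, the rate-limiting enzyme of melanin, had 12.3 and 6.65 CPM in line 112, 18.2 and 16.7 in 113, 0.947 and 0.525 in 119 and 0.711 and 1.05 in 73 (chromosome 7, 87492930 to 87493609). The start of Dct, the dopachrome tautomerase of the same pathway, had 25.4, 20.3, 67.2 and 55.7 CPM in the knockout libraries and 3.52, 4.37, 0.474 and 0.526 in the wild-type ones, the range of 6.05 on the log2 scale (chromosome 14, 118052215 to 118052856). Mlana, a melanosome protein, had 9.96, 10.9, 11.2 and 8.96 CPM in knockout and 0.676, 0.874, 0.474 and 0 in wild type. At none of these did a library of one genotype reach the level of the other.

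The genotype differences were 4.04 for Tyr, 4.23 for Dct and 4.23 for Mlana on the log2 scale, each with an adjusted p of 0.15 by edgeR with 2 lines against 2, so none passed. By DESeq2 with lines as units the adjusted p was 0.000844, 0.00114 and 0.0011. Tyrp1, Slc45a2 and Kit, which encode a melanin enzyme, a melanosome transporter and the receptor of stem cell factor, were also separated with knockout higher, at 1 of 2 tested regions of Tyrp1, 2 of 3 of Slc45a2 and 1 of 1 of Kit. The third Slc45a2 region was highest in line 119, with 5.78, 4.84, 12.7 and 3.33 CPM in lines 112, 113, 119 and 73. Also separated were Rab38, which sorts melanosome enzymes, and 1 of 3 regions of Mc1r, the melanocortin receptor, although at both line 119 stood far above line 73. Rab38 had 32.0, 19.6, 40.4 and 37.8 CPM in knockout, 15.3 and 14 in 119 and 0.711 and 1.31 in 73.

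Several lineage genes set line 73 apart rather than the genotypes. Sox10, the neural crest factor upstream of Mitf, had 22.5 and 21.5 CPM at its end in line 112, 18.9 and 21.3 in 113, 14.3 and 15.4 in 119 and 3.79 and 2.63 in 73. Pax3, another factor of the lineage, had 29.0 to 53.3 CPM in the libraries of 112, 113 and 119 and 5.45 and 6.31 in 73. Slc24a5 and Ednrb were lowest in line 73 as well, at 1.90 and 3.42, and at 3.32 and 1.31 CPM. At the start of Ednrb the other lines were not alike, with means of 9.84 CPM in line 112, 35.9 in 113 and 10.8 in 119. The start of Mitf did not follow, with 29.2 and 20.6 CPM in line 112, 35.8 and 35.4 in 113, 18 and 21.2 in 119 and 35.3 and 37.9 in 73. There the groups overlapped and the genotype difference was 0.11. A weak region near the finish of Mitf had line means of 1.92, 2.57, 0.716 and 0.632 CPM in lines 112, 113, 119 and 73. It was neither large nor separated by genotype, with a log2 difference of 1.63 (edgeR, lines as units, adjusted p = 0.48). Pmel, which shares its region with Rab5b, and Rab27a were not large, and their genotype differences changed sign with 1 library left out.

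Private regions passed in all 3 pairs of a line with 1 sign. There were 267 high and 552 low in line 112 (2.15% and 1.29% of all tested regions passed), 1373 and 310 in 113 (7.39% and 2.86%), 737 and 1626 in 119 (14% and 3.89%), and 1791 and 837 in 73 (12.6% and 11.7%). Line 119 had more low than high at gene ends although high ones were more numerous over all regions. The shifts given above for scaling, of -0.55 to 0.52 on the log2 scale, enter these counts. Private counts with scaling on gene-end regions are not given here.

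**Figure D5:**
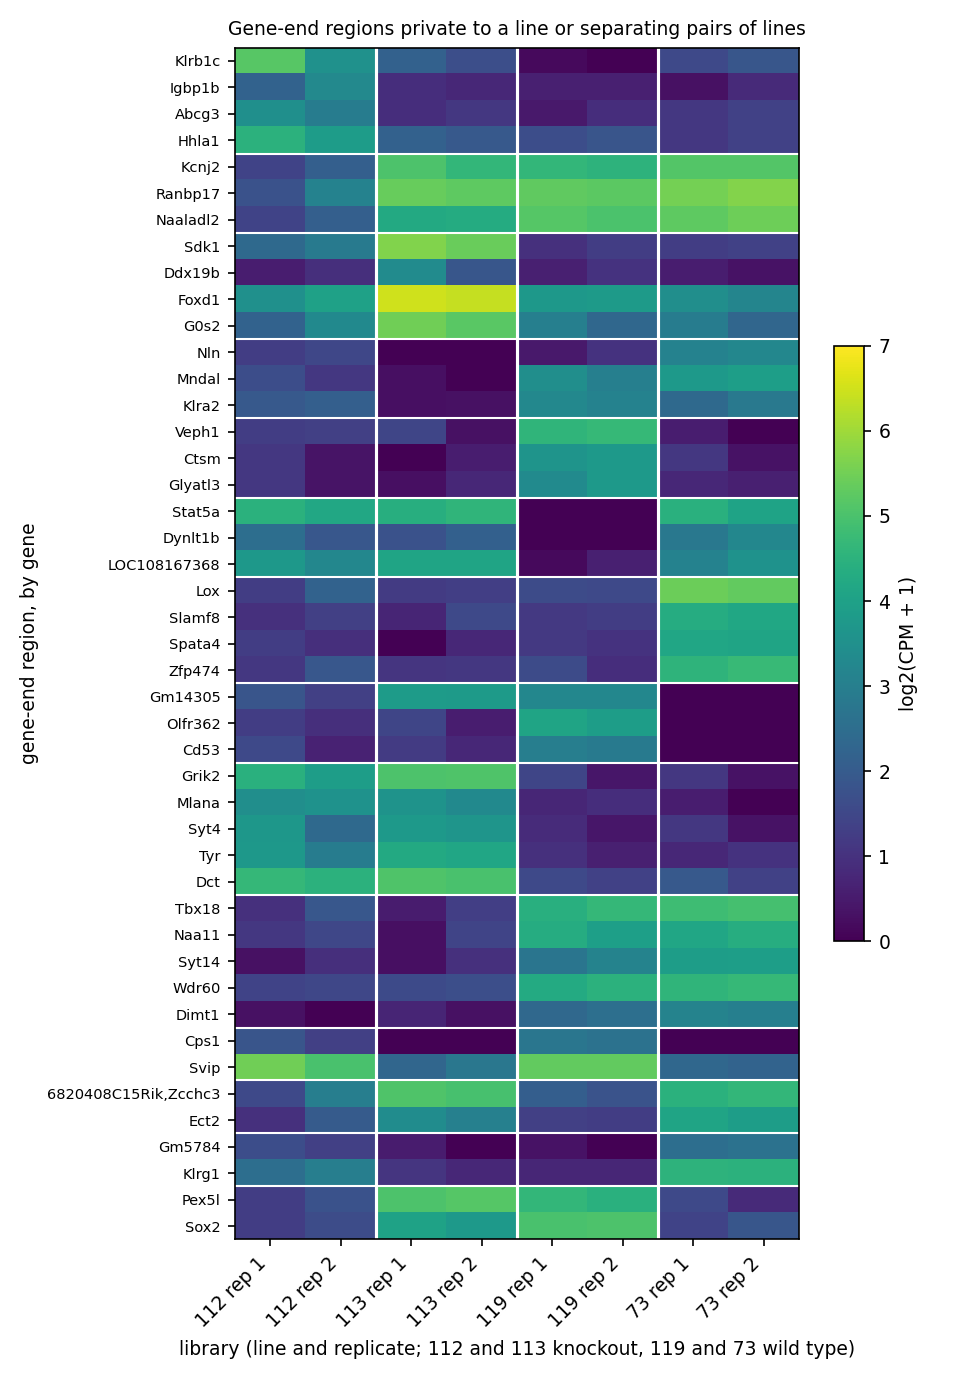
Signal of the named gene-end regions in the 8 libraries, as log2 of CPM plus 1 (colour), with regions in rows grouped by rule (white lines) from those private to line 112 to those that separate pairs of lines. Replicates of a line look alike in most rows, and Tyr, Dct and Mlana are bright in lines 112 and 113 alone.

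Line 113 was alone at Sdk1, an adhesion molecule of synapses, with 50.3 and 41.2 CPM against 0.947 to 6.35 in the other 6 libraries, in the promoter with 44 CpG printed above. Foxd1, a forkhead factor of kidney stroma and neural crest, had 88.7 and 82.6 CPM in line 113 and 8.15 to 15.1 elsewhere. G0s2, which inhibits the lipase of fat stores, had 44.1 and 35.8 CPM against 3.56 to 9.07. The remaining one, Ddx19b, rested on line 113 replicate 1, with 9.44 and 2.66 CPM, and its call was lost without that library and by DESeq2. Low in line 113 were Nln, Mndal and Klra2, each at 0 to 0.242 CPM there. The other lines differed too, with Nln at 7.59 and 8.41 CPM in line 73 but at a mean of 1.62 in 112 and 0.728 in 119. Mndal had means of 1.67 CPM in line 112, 8.59 in 119 and 13.5 in 73, and Klra2 had 3.09, 8.09 and 5.16. The call of Nln was lost by DESeq2 and without line 113 replicate 1, line 113 replicate 2 or line 119 replicate 2. That of Mndal was lost by DESeq2 and without line 112 replicate 1 or line 113 replicate 2.

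Line 73 was alone at Lox, lysyl oxidase of the collagen matrix, with 41.7 and 39.2 CPM against 1.32 to 3.63 (chromosome 18, 52529472 to 52530140). Zfp474, near Lox on the same chromosome (52639403 to 52639967), had 22.3 and 25.2 CPM against 0.874 to 2.72. Being close together, the regions of Lox and Zfp474 may not be independent. Slamf8, a receptor of myeloid cells, had 19.2 and 17.1 CPM against 0.658 to 1.94, and Spata4 16.6 and 16 against 0 to 1.42. Low in line 73, with 0 counts in both libraries, were Gm14305, Olfr362 and Cd53, a tetraspanin of leukocytes. Against a limit of 3 counts over the 2 libraries, the highest other line was at least 35.4-fold, 39.8-fold and 17.8-fold higher. The other lines were far from even: Olfr362 had 0.484 to 1.76 CPM in the libraries of lines 112 and 113 and a mean of 14.9 in 119. Cd53 had line means of 1.25, 1.02 and 6.66 CPM in lines 112, 113 and 119, and Gm14305 had 2.06, 13.2 and 8.39. The call of Cd53 was lost without line 112 replicate 1 and that of Olfr362 without line 113 replicate 1.

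Line 112 was alone at Klrb1c, a receptor of natural killer cells, with 35.6 and 10.6 CPM, against 0 to 3.51 elsewhere. Hhla1 had 21.6 and 13.6 CPM against 1.19 to 3.51, and Abcg3, a transporter gene, 10.2 and 6.65 against 0.406 to 1.58. Igbp1b had 3.56 and 8.77 CPM, and its call was lost without line 112 replicate 2 and by DESeq2. Klrb1c and Igbp1b lie on chromosome 6, where the median gene-end region of line 112 was 0.36 above the mean of the lines on the log2 scale, against -0.18 over all gene-end regions. That chromosome had 26.2% large regions and chromosome 18 had 23.6%, while the others had 12.0% to 19.8%, and the part of DNA copy number in this was not tested. Low in line 112 were Kcnj2, a potassium channel, with 1.66 and 3.32 CPM against 22.2 to 34.1, Ranbp17, a nuclear transport receptor, and Naaladl2.

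Line 119 was alone at Veph1, with 23.1 and 25.0 CPM against 0 to 1.76, and Ctsm and Glyatl3 were also high there. Low in line 119 were Stat5a, a STAT factor of cytokine signalling, Dynlt1b, a dynein light chain, and LOC108167368. The Stat5a region (chromosome 11, 100860145 to 100860690) had 21.1 and 17.2 CPM in line 112, 19.8 and 22.8 in 113 and 20.6 and 15.8 in 73, and 0 counts in both libraries of line 119, so against a limit of 3 counts over the 2 libraries of a line the highest line was at least 92.9-fold higher.

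At 2 of these the neighbours behaved alike. Over 9 consecutive regions at Stat5a and Stat5b (chromosome 11, 100789591 to 100860690) line 119 had 2 counts in all, and lines 112, 113 and 73 had 582, 626 and 608. Over 7 regions at Dynlt1b (chromosome 17, 6424490 to 6566767) line 119 had 6 counts and the others 381, 682 and 391. Regions at 0 in a line while another line had 5 CPM or more numbered 1 in line 112, 4 in 113, 4 in 119 and 7 in 73. Whether the DNA is present in those lines was not tested.

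The other lists gave smaller shares of large regions than the pigmentation list. Of 27 tested regions of the STAT3 pathway list 1 was large, against the 16.3% of gene-end regions, and 0 were separated by genotype, where library totals gave 1 in each direction. That one was Osmr, the oncostatin M receptor, with 26.3 and 28.9 CPM in line 73 and 1.10 to 4.53 in the other lines. Of 9 regions of C/EBP genes 1 was large, the finish shared by Ddit3 and Mars1, with 9.96, 8.77, 28.1 and 19.6 CPM in knockout and 2.89 to 4.87 in wild type. Of 24 regions of genes of the dedifferentiated melanoma state 7 were large and 3 were separated, all 3 with wild type higher. Of gene-end regions 3.75%, and of all tested regions 7.73%, were separated with wild type higher. This list too was chosen with earlier results of these data known, and 3 regions are few. Axl, a receptor kinase of that state, had 3.51 and 6.54 CPM in line 113 and 19.6 to 31.1 in the other lines at its start. Its other 2 regions, shared with Hnrnpul1, were not large and had their highest line means, 99.4 and 25.7 CPM, in line 113. Egfr was highest in line 73, at 15.2 and 19.2 CPM, and the 2 large regions of Ngfr and the 2 of Tead1 were highest in line 119. The third Tead1 region, the strongest, was not large and was lowest there, with line means of 35.4, 53.1, 24.8 and 40.8 CPM in lines 112, 113, 119 and 73.

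Of the 7 tested regions of germline genes, 3 were large, at Tex101, Stk31 and Asz1, where 16.3% of gene-end regions and 43.9% of all tested regions were large. Line 112 was the highest at each. Tex101 had 10.2 and 6.04 CPM in line 112 and at most 2.13 elsewhere. Stk31 had 5.46 and 8.77 against 0.35 to 2.66, and Asz1 3.32 and 6.65 against 0.175 to 1.21. Stk31 and Asz1 lie on chromosome 6, whose median in line 112 is given above.

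Families of genes used by every cell had few large regions. Of 97 tested regions at ribosomal protein genes 1 (1.03%) was large, the region at the end of Rps18 and B3galt4, with 6.88 to 10.3 CPM in knockout and 20.3 to 35.8 in wild type. It was also separated, as were the finishes of Rpl38 and Rps15a and the start near Rpl19 and Cacnb1, all 4 with wild type higher. The count was 4 under each scaling tried. These 4 of 97 were near the background, since 3.75% of gene-end regions and 7.73% of all tested regions were separated with wild type higher. Large regions were 6 of 104 (5.77%) for the mitochondrial ribosome, 4 of 50 (8%) for the proteasome and 4 of 55 (7.27%) for respiratory complex I. They were 4 of 43 (9.30%) for RNA polymerases and 5 of 79 (6.33%) for translation initiation factors. Zfp zinc fingers, a family not counted as used by every cell, had 34 of 386 (8.81%). Several of these shares were near the 9.30% of regions that held a start. Solute carriers, with 65 of 360 (18.1%), and cytochromes P450, with 8 of 41 (19.5%), were near the share of all gene-end regions.

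Several developmental and tissue-restricted families had higher shares of large regions than the 16.3% of all gene-end regions, but they also had lower signal. Their medians were 2.52 to 7.73 CPM, against 14.9 CPM over the tested gene-end regions. Gene-end regions with a mean of 2 to 5 CPM were large in 25.9% and those with 5 to 10 CPM in 29.9%. Of 43 tested regions at Hox genes, the homeobox factors that set position along the body axis, 33 (76.7%) were large. Line 73 was the highest in 31 of those 33, and line 119 the lowest in 23 and line 113 in 10, and 2 were separated with knockout higher and 2 with wild type higher. With scaling on gene-end regions 27 were large, and line 73 was the highest in 24 of them and line 119 the lowest in 14. Hoxd9 had line means of 4.97 CPM in line 112, 2.66 in 113, 1.88 in 119 and 27.4 in 73. The start of Hoxa9 had 7.13, 2.2, 1.27 and 19.4 CPM in the same order. The region over an end of Hoxc13 was high in both wild-type lines, at 17.7 and 27.8 CPM against 2.29 and 2.03 in the knockout lines. Its other region was highest in line 73, with 17.3 and 12.6 CPM there and line means of 3.94, 3.69 and 3.10 in lines 112, 113 and 119. Neighbouring Hox genes share a cluster, so these regions are not independent.

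Collagen genes had 24 large regions of 45 (53.3%), and line 73 was the highest in 16 and line 113 the lowest in 16. Of the 7 tested regions of the fibroblast markers Pdgfra, Col1a1, Col3a1, Dcn and Lum, of which Col1a1 and Col3a1 are collagens themselves, 5 were large and line 73 was the highest in 4. Summed over the strongest region of each of the 5 genes, their signal was 54.0 CPM in line 73 and 39.5 to 43.1 CPM in the others. That sum leaves out the large region of Col1a1, with line means of 4.95, 2.41, 5.62 and 17.1 CPM in lines 112, 113, 119 and 73. The part of these markers in the collagen values was not tested. Scaling on gene-end regions gave 24 large collagen regions with line 73 the highest in 12 and line 113 the lowest in 17. Col1a2, a chain of type I collagen, had line means of 3.52, 1.38, 0.620 and 30.1 CPM in lines 112, 113, 119 and 73 at its start. Col5a2 was separated, with 3.76 and 1.07 CPM in knockout and 19.9 and 28.0 in wild type, and 8 collagen regions were separated that way and 2 the other way. Chemokine genes had 17 large of 29 (58.6%), with line 73 the highest in 11, or in 9 of 17 with scaling on gene-end regions. Cxcl1 and Ccl2, which draw neutrophils and monocytes, had 14.2 and 20.1 CPM in line 119 and 36.1 and 31.5 in 73, against 1.80 to 3.24 in the knockout lines. Ccl5 ran the other way, with 10.6 and 18.2 CPM in knockout and 1.1 and 1.1 in wild type. Smell and taste receptors had 36 large of 60 (60%), protocadherins 16 of 34 and keratins 7 of 15, while serpins had 3 of 29. Interleukins and their receptors had 17 of 54 (31.5%), and Sox, Fox, Pax and like developmental factors 39 of 130 (30%). Both were near the 29.9% of gene-end regions at 5 to 10 CPM.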

How the data were processed

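The members and the gene lists were chosen with earlier results of these data known. The authors deposited whole-number counts for each region and library and, per library, a peak list whose fold over background (a ratio) is the peak caller's own. Per the submitters' processing notes the builds were mm10 and GRCm38 and the tools Bowtie2 2.2.4, Picard 1.118 and MACS2 2.1.1.20160309, with no role given. The treatment of duplicates, the Tn5 shift, and whether reads, fragments or cuts were counted are not given in the sources used here, so counts may hold PCR duplicates. Column sums were 2697546 to 7464336. The count table had 0 columns of other samples.

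Positions are 1-based. Gene ends came from the RefSeq table of GRCm38.p6, and strands and promoters from the RefSeq promoter table of the same build. Regions were filtered with filterByExpr (group = line, minimum count 10, minimum total 15). The test was edgeR 4.0.16 (quasi-likelihood, robust, TMM, R 4.3.3), 1 mean per line over 8 libraries, with Benjamini-Hochberg adjustment over all tested regions at 0.05. Genotype was tested on counts summed per line. CPM used TMM library sizes and log2 CPM a prior count of 2. DESeq2 1.42.0 was an alternative. The scripts were tested on simulated data. The labels call the 2 libraries of each line biological replicates and name no separate cultures, so p-values measure the spread between these libraries, which may be technical. Limits for counts of 0 (3 counts) cover counting error only.

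Named regions were the 6 with the highest mean, the 5 with the smallest range at a mean of at least 20 CPM, and, where a line had at least 5 CPM, those with the largest smallest fold change: 4 private high and 3 private low per line, 5 per direction of the genotype split and 2 per direction of the other splits. All regions of the pigmentation list, the large ones of the other lists, and Stat3 were added. Genes of the families were picked after their values were seen. 1 region that the rule for private regions picks is not reported here.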

Additional observations from a re-analysis of the deposited data

How the results depend on the processing

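With only overlapping regions, 9599 differed between any lines, 1254 were large, 256 and 327 were separated by genotype (knockout and wild type higher), 37 had lines 112 and 119 higher, and the pairs 112 and 119, 112 and 73, 113 and 73, and 119 and 73 had 3135, 5771, 3236 and 7190. Within 2 kb, 4320 were large and 880 and 986 separated. A range of at least 1 or 3 on the log2 scale gave 9133 or 811 large regions. A mean of at least 50 counts, which leaves fewer regions, gave 7510 differing, 769 large, 311 and 378 separated by genotype, 264 with 113 and 73 higher, a spread of 0.27, and 2409, 3743, 5399, 3800 and 5436 for the pairs 112 and 113, 112 and 73, 113 and 119, 113 and 73, and 119 and 73. With this filter the correlations were 0.792 between knockout lines, 0.616 between wild-type lines and 0.604 across genotype, and Spearman's rho was 0.917, 0.847 and 0.844.

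Library totals in place of TMM gave 1403 with 113 and 73 higher, 199 with 112 and 119 higher and a spread of 0.44. The spread was 0.52 with no filter, 0.51 with a filter on line sums (added after seeing the data) and 0.35 with scaling on gene-end regions (also added), which gave 4631, 6991 and 6796 for 112 and 113, 113 and 119, and 119 and 73, and 130 and 419 for the split of 112 and 119. DESeq2 gave 3417 for 112 and 119, 292 and 401 separated by genotype, and 22 with 112 and 119 higher. With DESeq2 the genotype count with lines as units was 292, where 5.08% of all tested regions passed. With edgeR and 8 libraries as units it was 1615. That fit treats the 2 libraries of a line as independent, so its count does not measure a genotype difference. The cause of these shifts was not tested.

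Replicate numbers did not pair the libraries: deviations from the line means correlated at -0.037 to 0.004 between same-numbered libraries. With a replicate block 15003 regions differed, 2854 were large, 545 and 637 were separated by genotype, and 2503 had 113 and 73 higher. The genotype count with 8 libraries as units was then 1157, with the limit given above for that fit.

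Leaving out 1 library at a time gave 12978 to 16030 regions that differed and 2856 to 3091 large ones. Ranges for the pairs were 4441 to 8406 (112 and 113), 3323 to 6522 (112 and 119), 7727 to 13136 (113 and 119) and 7033 to 13303 (119 and 73). They were 362 to 639 for separated with knockout higher, 1200 to 5105 with 113 and 73 higher, 42 to 93 with 112 and 119 higher, 0.46 to 0.56 for the spread and 0 to 13 for genotype with lines as units, where 13 came without line 112 replicate 1. Genotype differences near 0 changed sign. That of the Mitf start ranged from -0.011 (without line 112 replicate 1) to 0.19. That of Pmel ranged from -0.17 to 0.065 (without line 112 replicate 2, and 0.016 without line 73 replicate 1). That of Rab27a ranged from -0.18 to 0.060 (without line 73 replicate 2). Of the alternatives run on named regions 581 kept direction and call and 17 kept direction only.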
